A study of Mus musculus with 40 samples.

Results

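The genes for the replication-dependent core histones and the linker histones were examined in RNA-seq counts of mouse hippocampus. Members were the rows of the count table whose symbol is H1f1 to H1f5, or H2ac, H2bc, H3c or H4c followed by a number, and whose counts summed to at least 20 over all mice. Of 63 rows with such a symbol, 61 met that sum, among 28449 genes that met it and 40853 rows in all. They are 5 H1, 16 H2A, 16 H2B, 12 H3 and 12 H4 genes. The rows left out were H2bc1, with 4 counts, and H2ac1, with 0 counts. The members with the fewest counts were H2ac22 with 21, H2ac12 with 26 and H2bc14 with 29.

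DNA is wrapped around octamers of the core histones H2A, H2B, H3 and H4, and linker histone H1 binds where the DNA enters and leaves the octamer. The genes examined here lie in clusters, and most of their transcripts are made in S phase, when new chromatin needs histones. Such a transcript usually has no poly(A) tail and ends just after a stem-loop that is bound by the stem-loop binding protein Slbp. Neurons do not divide and take up replication-independent variants such as H3.3 and H2A.Z, but some genes of the clusters also give longer, polyadenylated transcripts outside S phase.

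The study deleted H2A.Z in the hippocampus and replaced it with forms of H2A.Z.1 that cannot be acetylated or mimic acetylation. Hippocampal tissue came from 40 mice with 1 library each, 18 females and 22 males, all given AAV by stereotaxic injection on both sides. The methods describe all mice as floxed for both H2A.Z genes, whereas the sample labels give the genotype of the Myc controls as WT. Myc mice (3 females, 4 males) received a 3xMyc and GFP vector without Cre. KO mice (4 females, 4 males), named KD in the labels, were given the 3xMyc vector and Cre driven by the Synapsin promoter, which is active in neurons. WT mice (4 females, 5 males) received Cre and 3xMyc-tagged wild-type H2A.Z.1 under the CMV promoter. KA mice (4 females, 4 males) and KQ mice (3 females, 5 males) received Cre and H2A.Z.1 in which N-terminal lysines were changed to alanine or to glutamine. The ages of the mice are not given in the sources used here. Since only Myc mice lacked Cre, its effects and those of the deletion cannot be told apart.

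Counts per library ran from 24342921 to 45982772, of which 1556 to 6485 belonged to the 61 members. Levels are given in CPM, the counts of a gene relative to all counts of its library after TMM scaling. Differences were tested with edgeR, and a gene is said to have passed, risen or fallen when its adjusted p was under 0.05 over all 28449 genes, at any fold change. H2az1 and H2az2, the deleted genes, gave log2 fold changes in KO over Myc mice of -0.06 (adjusted p = 0.828) and 0.28 (adjusted p = 0.0609) in females and -0.05 (adjusted p = 0.841) and 0.14 (adjusted p = 0.35) in males. These counts take in all cells and every exon, and the floxed exons are not given in the sources used here, so they do not check the deletion. The study itself reported lower mRNA of both genes after Cre without replacement, and a robust drop of H2A.Z in cultured neurons given Cre. It held that the drop in tissue was likely small because bulk tissue hardly reveals a knockout limited to neurons. Groups are named here by the virus that they received. Female Myc mouse 32 stood apart from Myc mice 11 and 31, since its counts differed from theirs by a chi-square of 286 and 205 per degree of freedom, against at most 108 between mice of other groups, and values without it are given where it ends a call or moves a value by over 1.5 times, and for the sums, H1f2 and H2bc4. Fewer cells of a type and less RNA per cell cannot be told apart in such bulk tissue.

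The stem-loop is the sequence that sets these genes apart from others. In the GRCm39 genome, 55 of the 61 members (90.2%) had GGC, any base, CTTTT, any base, AG, any base and GCC in a row on the sense strand, the letters of the stem-loop, within 150 bases after the stop codon. Among 21586 other protein-coding genes 10 had one (0.0463%), all of them further histone genes (H1f6, H2ac1, H2ac25, H2ax, H2bc1, H2bc26, H2bc27, H2bw2, H3f4 and H4c16). The match began 21 to 58 bases after the stop codon, with a median of 30. The 6 members shown here recur in the results, and have their stem-loop in capitals in stretches of 26 bases read 5′ to 3′ on the strand of the gene, so that the form shared by H1, H2A, H2B and H3 genes can be set against the form of the H4 genes.
H1f2 (chr13:23923490-23923515, + strand): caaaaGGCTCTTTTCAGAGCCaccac
H2ac23 (chr13:21995063-21995088, + strand): aaaaaGGCTCTTTTCAGAGCCatcca
H2bc4 (chr13:23868625-23868650, + strand): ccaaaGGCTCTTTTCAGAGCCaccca
H3c4 (chr13:23760413-23760438, + strand): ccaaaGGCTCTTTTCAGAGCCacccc
H4c8 (chr13:23715623-23715648, + strand): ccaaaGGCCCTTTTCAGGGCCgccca
H4c9 (chr13:22225131-22225156, - strand): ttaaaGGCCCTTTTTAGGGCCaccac

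The first 4 share the core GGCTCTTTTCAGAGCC, which 38 members carried. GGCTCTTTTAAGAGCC was found in 7 H2A, H2B and H3 genes, and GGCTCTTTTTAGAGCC in 1 H2A gene. All 9 H4 genes with a match had the stem written GGCCC, as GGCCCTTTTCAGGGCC in 7 and as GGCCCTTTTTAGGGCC in 2. The 6 members without a match were H2bc21, H2ac22, H3c8, H4c1, H4c2 and H4c11, which says only that these letters were not found in this window. RefSeq promoters (GRCm38.p6, from 250 bases before to 50 after the start) were at hand for 55 members. The octamer ATTTGCAT, a motif known from H2B promoters, stood on either strand in 5 of 13 H2B and 5 of 16 H2A promoters, in none of the H1, H3 and H4 promoters and in 1.72% of all other promoters. Promoters of several H2A and H2B genes overlap, so that a site can be counted under both types. The octamer of H2ac8 is the same site as that of H2bc8, and the octamer of H2ac12 the same as that of H2bc12. CCAAT stood on either strand in all 44 promoters of H1, H2A, H2B and H3 genes, in 3 of 11 H4 promoters and in 37.8% of the others.

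Reads of these genes came mostly from a pair of members. H2bc4 held 46.7% and H1f2 18.6% of all counts of the members, H2bc4 76.0% of the H2B counts and H1f2 93.9% of the H1 counts. H2bc4 lies at chr13:23867631-23878163, and its annotation reaches 9518 bases past the stem-loop, into exonic and intronic sequence of longer transcripts. H1f2 is a gene of 1 exon at chr13:23922791-23924350, annotated to 840 bases past its stem-loop. Per kilobase of annotated exon, the mean levels over all mice ran from 16.1 CPM for H2bc4 and 12.6 CPM for H1f2 to 6.73 CPM for H4c8, 4.83 CPM for H2ac19 and 4.16 CPM for H2ac18. H2bc21, a polyadenylated member of the type known from differentiated cells, stood at 2.12 CPM per kilobase. A mean of 2 CPM was reached by 8 members, 10 reached 1 CPM and 18 stayed under 0.1 CPM. The type of library (with or without selection for poly(A) tails), its strandedness and the treatment of reads that align to several copies are not given in the sources used here. Levels of transcripts with and without a tail can therefore not be compared.

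More members were higher than lower in KO mice of both sexes. In females 15 of 61 members were higher in KO than in Myc mice (24.6%, against 18.1% of all genes tested) and 1 was lower (against 16.5%). In males 19 were higher (31.1%, against 17.2%) and 0 were lower (against 14.4%), where DESeq2 also found 0 (against 14.0%) and 1 member was lower at an unadjusted p under 0.05. The median log2 fold change of the members was 0.77 in females and 0.84 in males, beside 0.003 and 0.027 over all genes tested. It was 0.74 and 0.87 when members with a group at 0 counts were set at the bound that 3 counts in that group allow, or left out where the other group had no more than 3. Without female Myc mouse 31 the number of higher members fell to 9, and without male Myc mouse 23 or 41 to 12. Without female Myc mouse 32 it was 17, with 0 lower. The number of lower members was 2 without female Myc mouse 31, 0 without any 1 of the 4 KO females, and 1 without male KO mouse 21 or Myc mouse 41.

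Every KO mouse stood above every Myc mouse for 19 members in females (all genes tested: 18.8%) and 14 in males (15.0%), and below for 0 in both (16.4% and 13.2%). By type, 2 of 5 H1, 4 of 16 H2A, 5 of 16 H2B, 2 of 12 H3 and 2 of 12 H4 genes rose in females. In males these numbers were 4 of 5, 5 of 16, 4 of 16, 1 of 12 and 5 of 12. As shares they were 40.0%, 25.0%, 31.2%, 16.7% and 16.7% in females, against 18.1% of all genes, and 80%, 31.2%, 25.0%, 8.33% and 41.7% in males, against 17.2%. The H3 share in both sexes and the H4 share in females were thus under that of all genes. In both sexes 9 members rose, and these were H1f2, H1f4, H2ac23, H2bc4, H2bc11, H2bc23, H3c4, H4c8 and H4c9. Of the others 6 passed only in females, 10 only in males and 35 in neither sex, and H3c6 was the member that was lower in females. H2bc24 in females (1.92, adjusted p = 0.0272, SE 0.69) and H2ac7 (1.27, adjusted p = 0.0455, SE 0.49) and H4c1 (2.56, adjusted p = 0.0296, SE 0.92) in males are named to complete these numbers, after their values were seen. At an unadjusted p under 0.05 in edgeR, the KO response differed between the sexes for 7 of 61 members, beside 1569 of all 28449 genes. After adjustment no member passed this test in edgeR (all genes tested: 0.0%), and 0 passed by DESeq2 (all genes tested: 0.105%). Passing in 1 sex is thus no measured difference between the sexes.

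**Figure D1:**
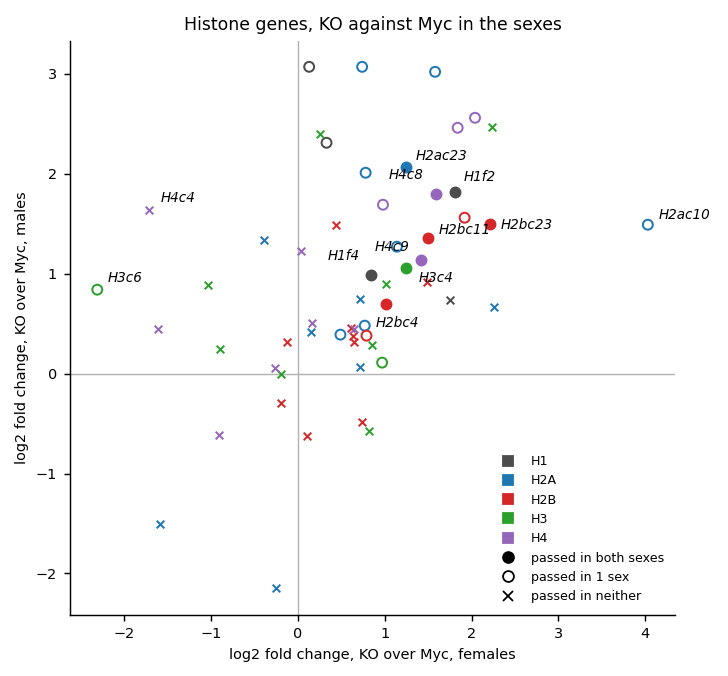
Log2 fold change of KO over Myc mice in females (horizontal axis) and males (vertical axis) for 57 members, coloured by histone type, with 4 members left out because a group had 0 counts. Filled points passed in both sexes, open circles in 1 and crosses in neither, and the 9 filled points lie in the upper right; fits of members with few counts scatter most.

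H1f2, which encodes linker histone H1.2, rose about as much in both sexes. In Myc females it stood at 9.52, 10.5 and 5.92 CPM (mice 11, 31 and 32) and in KO females at 34.3, 31.9, 26.1 and 29.1 CPM (mice 13, 14, 33 and 34). In Myc males it stood at 5.86, 8.31, 7.86 and 8.7 CPM and in KO males at 27.9, 29.8, 26.1 and 24.8 CPM. All KO mice were above all Myc mice, and the lowest KO mouse was well over the highest Myc mouse in each sex. The log2 fold change was 1.81 (adjusted p = 1.15e-07, SE 0.22) in females and 1.82 (adjusted p = 4.91e-09, SE 0.2) in males. It was 1.6 in females without Myc mouse 32. Only 5.1% of the windows of 100 bases in its transcript occur in another annotated gene, so that few of its reads could come from a copy.

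The other H1 genes were far lower. H1f4, for H1.4, stood at 0.742 ± 0.357 CPM (SD, n = 3) in Myc and 1.31 ± 0.35 CPM (n = 4) in KO females, and at 0.463 ± 0.111 CPM and 0.921 ± 0.19 CPM (n = 4 each) in males. The groups overlapped in females and not in males, with log2 fold changes of 0.84 (adjusted p = 0.0438, SE 0.33) and 0.99 (adjusted p = 0.0121, SE 0.31). The call of H1f4 was lost in females without any 1 of Myc mice 11 and 31 or KO mice 13, 14 and 34 (0.59 to 0.89) and in males without Myc mouse 22 (0.86, adjusted p = 0.0502). In females it was 1.29 without Myc mouse 32, and it was lost with no filter on counts (0.85, adjusted p = 0.0572), with only the compared groups fitted (0.85, adjusted p = 0.12) and with sample number range as a covariate (0.82, adjusted p = 0.055). H1f4 lies under an annotated transcript of H2bc6, and 26.4% of its windows are shared. H1f3, for H1.3, passed in males only, with 0.0251 to 0.0586 CPM in Myc and 0.13 to 0.354 CPM in KO males (2.31, adjusted p = 0.0096, SE 0.7), and was lost without KO mouse 4 (1.96, adjusted p = 0.0512). H1f1 had 3 counts in all Myc males together and 0.0811 to 0.302 CPM in KO males (adjusted p = 0.0175). It was lost without Myc mouse 1 or 23 (adjusted p = 0.0596 and 0.055), and its fold change is not given because so few counts do not fix it.

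Among H2B genes, H2bc4 rose in both sexes. It stood at 34.7, 29.8 and 24.7 CPM in Myc females and at 67.0, 63.5, 53.9 and 56.8 CPM in KO females. In males it stood at 32.4, 35.0, 26.1 and 29.1 CPM in Myc and at 55.8, 53.7, 45.2 and 44.9 CPM in KO mice. Neither sex had any overlap between the groups. The log2 fold change was 1.02 (adjusted p = 3.38e-07, SE 0.14) in females, 0.9 without Myc mouse 32, and 0.7 (adjusted p = 2.03e-05, SE 0.12) in males. Of its windows 16.3% are shared with other histone genes, and H2ac6 overlaps its longer transcripts.

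H2bc11 and H2bc23 rose in both sexes at under 1 CPM. H2bc11 gave a log2 fold change of 1.5 (adjusted p = 0.013, SE 0.48) in females and 1.36 (adjusted p = 0.0144, SE 0.43) in males. H2bc23 gave 2.21 (adjusted p = 0.00279, SE 0.58) and 1.5 (adjusted p = 0.0238, SE 0.52). All of its windows are shared, with H2bc24 among others, so its reads could be those of a copy. Of the windows of H2bc24, 89.5% are shared. The call of H2bc11 was lost without female Myc mouse 31 (1.38) or KO mouse 34 (1.13) and without male Myc mouse 1 (1.15) or 41 (1.1). That of H2bc23 was lost in males without KO mouse 4 (1.07) or Myc mouse 23 (1.2) or 41 (1.15). With only the compared groups fitted, both genes lost their call in males (H2bc11 adjusted p = 0.0583, H2bc23 adjusted p = 0.0934).

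H2bc6 and H2bc21 showed what the more abundant H2B genes did beside H2bc4. H2bc6 was at 5.1, 3.48 and 3.79 CPM in Myc and at 7.84, 7.01, 6.05 and 7.85 CPM in KO females, without overlap (0.79, adjusted p = 0.00262, SE 0.21). In males it was at 5.93, 5.62, 2.79 and 3.3 CPM in Myc and 6.68, 4.2, 5.14 and 7.0 CPM in KO mice, which overlapped (0.38, adjusted p = 0.124, SE 0.19). H2bc21, which had no stem-loop match and no shared window, was at 5.82, 6.37 and 5.75 CPM in Myc and 5.47, 5.94, 4.6 and 4.79 CPM in KO females. Its log2 fold change was -0.2 (adjusted p = 0.367, SE 0.16) in females and -0.29 (adjusted p = 0.153, SE 0.15) in males, so that it did not follow H2bc4 upward. H2bc14 had 0 counts in Myc mice of both sexes and no more than 0.135 CPM in any KO male (adjusted p = 0.0449), and its call was lost without any 1 of KO mice 3 and 21 or the 4 Myc males. The call of H2bc14 was also lost with no filter (adjusted p = 0.0549), with sample number range as a covariate (adjusted p = 0.068) and without the 4 mice over 1000 CPM of Ttr (adjusted p = 0.0535).

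Among H4 genes, H4c8 and H4c9 rose in both sexes. H4c8 was at 1.86, 1.94 and 1.92 CPM in Myc and at 7.65, 5.69, 5.15 and 4.41 CPM in KO females. In males it was at 1.06, 1.97, 1.06 and 1.34 CPM in Myc and at 5.57, 3.76, 5.19 and 4.36 CPM in KO mice. No KO mouse reached down to the Myc mice. The log2 fold change was 1.59 (adjusted p = 3.88e-05, SE 0.29) in females and 1.8 (adjusted p = 9.61e-07, SE 0.26) in males. H4c9 went from 1.56 ± 0.534 CPM (SD, n = 3) to 4.24 ± 0.452 CPM (n = 4) in females and from 1.42 ± 0.407 to 3.13 ± 0.408 CPM (n = 4 each) in males, again without overlap. Its log2 fold changes were 1.42 (adjusted p = 2.14e-05, SE 0.25) and 1.14 (adjusted p = 0.000102, SE 0.22). Windows shared with other genes make up 97.6% of H4c8 but 15.1% of H4c9, so the copy that the reads of H4c8 came from is uncertain, while most of H4c9 is its own sequence.

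H4c17 and H4c18 passed in males, at 2.46 (adjusted p = 0.0118, SE 0.76) and 1.69 (adjusted p = 0.0231, SE 0.58). Of their windows 88.1% and 80.7% are shared, with each other among other genes, so the copy that their reads came from is uncertain. The call of H4c18 was lost without male Myc mouse 1 (1.37) or KO mouse 4 (1.6) or 42 (1.51). H4c4 had a negative value in females that did not pass and came with a single library. It was at 0.169, 0.0 and 2.64 CPM in Myc mice 11, 31 and 32, and at 0.123 to 0.381 CPM in KO females (log2 fold change -1.71, adjusted p = 0.0715, SE 0.74). H4c3, at 1.49 CPM in Myc mouse 32 and no more than 0.242 CPM in the other Myc females, was highest in the same library; both genes were looked at after their values were seen.

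Of the 16 H2A genes 4 rose in females and 5 in males. H2ac18 and H2ac19, a pair of near-identical copies on chromosome 3 whose windows are all shared, passed in females at 0.77 (adjusted p = 0.00469, SE 0.21) and 0.49 (adjusted p = 0.0436, SE 0.19). In males their log2 fold changes were 0.48 (adjusted p = 0.055, SE 0.19) and 0.39 (adjusted p = 0.0862, SE 0.18). In neither sex did KO and Myc mice overlap for H2ac19, and Myc females were at 1.87 to 2.68 CPM. In females its call rested on KO mouse 14 at 4.22 CPM, the other KO females being at 2.93 to 3.05 CPM. Its call was lost without that mouse (0.35, adjusted p = 0.194), without Myc mouse 31 (0.52, adjusted p = 0.0727) and without Myc mouse 32 (0.36, adjusted p = 0.215). The call of H2ac19 was also lost with no filter (adjusted p = 0.0603), with only the compared groups fitted (adjusted p = 0.124) and without the mice over 1000 CPM of Ttr (adjusted p = 0.23).

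H2ac23 was at 0.302, 0.508, 0.147 and 0.228 CPM in Myc males and at 0.73, 1.12, 1.64 and 1.51 CPM in KO males, with no overlap. The log2 fold change was 2.07 (adjusted p = 0.000143, SE 0.41). In females it was 1.25 (adjusted p = 0.0392, SE 0.48), with KO mice at 0.268 to 1.09 CPM and Myc mice at 0.237 to 0.298 CPM, and the call was lost without any 1 of the 3 Myc mice or KO mice 33 and 34 (0.87 to 1.33), and with only the compared groups fitted (1.27, adjusted p = 0.091). H2ac24 passed in males only (2.01, adjusted p = 0.00547, SE 0.57). H2ac10 had 2 counts in all Myc females together against 0.223 to 0.555 CPM in KO females (adjusted p = 0.000518). H2ac4 and H2ac11 each had 1 count in all Myc males and passed in males (adjusted p = 0.0261 and 0.0393), but each call was lost when any 1 of 5 mice was left out. For H2ac4 these were Myc mice 1, 23 and 41 and KO mice 3 and 42, with adjusted p from 0.0535 to 0.0857. For H2ac11 they were Myc mice 1, 22 and 23 and KO mice 3 and 21, with adjusted p from 0.0748 to 0.101, and the call of H2ac11 was lost in DESeq2 (adjusted p = 0.0616) and with no filter (adjusted p = 0.06) as well. H2ac23, H2ac24 and H2ac10 share 92.7%, 92.2% and 79.3% of their windows with other genes.

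Of the 12 H3 genes 2 rose in females and 1 in males. H3c4 rose in both sexes, from 0.403 ± 0.287 CPM (SD, n = 3) to 0.913 ± 0.261 CPM (n = 4) in females and from 0.323 ± 0.193 to 0.681 ± 0.176 CPM (n = 4 each) in males, with groups that overlapped. The log2 fold changes were 1.24 (adjusted p = 0.0252, SE 0.44) and 1.06 (adjusted p = 0.0392, SE 0.4). The call was lost without any 1 of Myc mice 11 and 31 or KO mouse 13 in females (0.81 to 1.12). In males it was lost without any 1 of Myc mice 23 and 41 or KO mice 3, 4 and 42 (0.82 to 1.06), with no filter (adjusted p = 0.0508) and with sample number range as a covariate (1.02, adjusted p = 0.0535). With only the compared groups fitted H3c4 was lost in females (adjusted p = 0.0871) and in males (adjusted p = 0.0729), and without Myc mouse 32 it was 1.95 in females. H3c15, with 61.6% of its windows shared, passed in females (0.97, adjusted p = 0.00124, SE 0.23). There the KO mice at 1.92 to 2.4 CPM stood above the Myc mice at 0.724 to 1.45 CPM. In males it was at 1.3 to 1.61 CPM in KO and 1.17 to 1.68 CPM in Myc mice (0.11, adjusted p = 0.74, SE 0.21). H3c6 was the lower member in females, at 0.338, 0.0 and 0.596 CPM in Myc and 0.0309 to 0.0817 CPM in KO mice (-2.31, adjusted p = 0.0419, SE 0.9). Its groups overlapped, and the call was lost without any 1 of Myc mice 11 and 32 or the 4 KO females (-2.49 to -1.58), with only the compared groups fitted (adjusted p = 0.0915) and without the mice over 1000 CPM of Ttr (-1.89, adjusted p = 0.222).

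**Figure D2:**
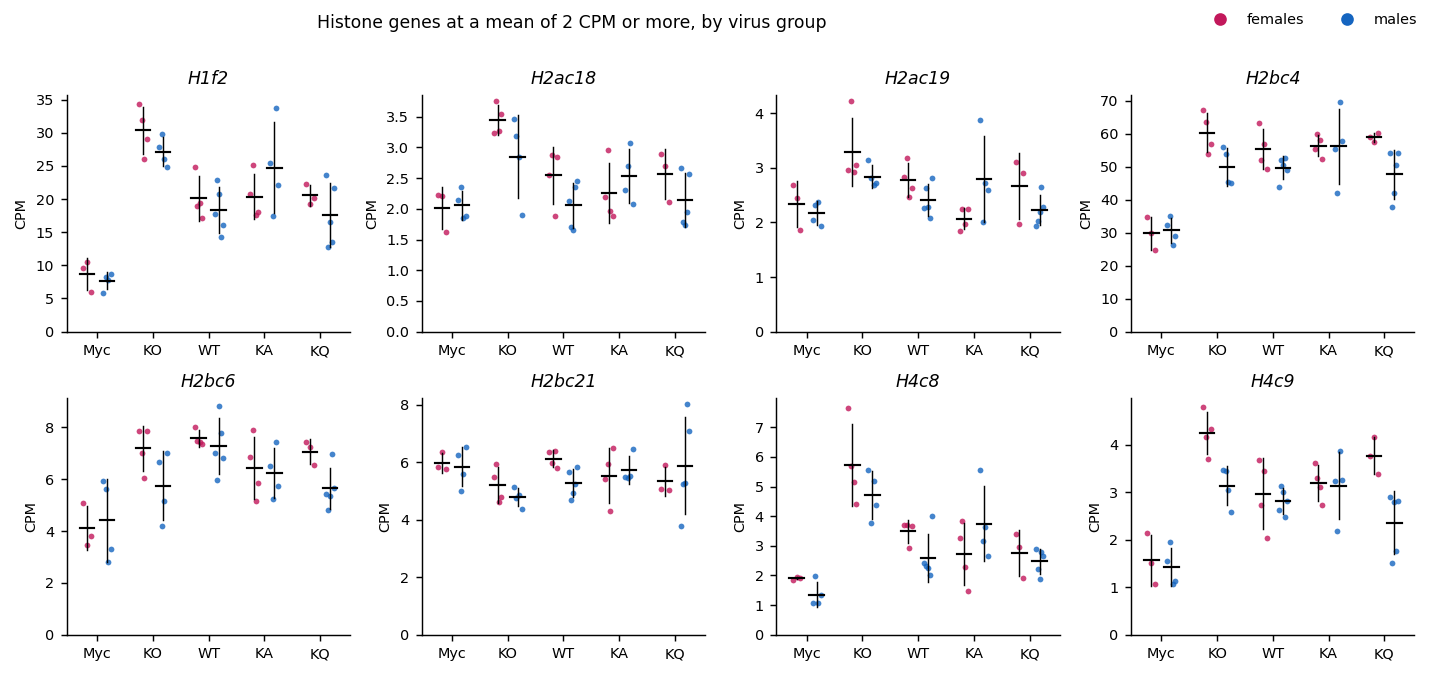
CPM of the 8 members with a mean of at least 2 CPM in each group (horizontal axis), with 1 point per mouse, females in pink and males in blue, the mean as a bar and the SD as a line. H1f2, H2ac19, H2bc4, H4c8 and H4c9 stand higher in every KO mouse than in any Myc mouse of the same sex, whereas H2bc21 shows no such rise.

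Levels were also summed over each type. The summed level of the H1 genes in KO females was 3.29 ± 0.39 times the Myc mean (SD over 4 mice) and in KO males 3.44 ± 0.277 times, with 3.0 in females without Myc mouse 32. For H2A genes this ratio was 1.65 ± 0.0718 in females and 1.56 ± 0.139 in males, and for H3 genes 1.62 ± 0.198 and 1.3 ± 0.163. It was 1.83 ± 0.178, or 1.72 without Myc mouse 32, and 1.49 ± 0.139 for H2B genes. Without H2bc4 the H2B ratio was 1.38 and 1.14. Without H1f2 the H1 ratio was 1.69 in females and 2.39 in males, but 2.66 in females without Myc mouse 32, in which these H1 genes summed to 2.04 CPM beside 0.87 and 0.633 CPM in the other Myc females. For H4 genes it was 1.93 ± 0.335 in females, 2.64 without Myc mouse 32, and 2.51 ± 0.155 in males. For H3 genes in females it was 1.84 without that mouse. Over all members the ratio was 2.02 in females, or 1.98 without that mouse, and 1.8 in males.

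**Figure D3:**
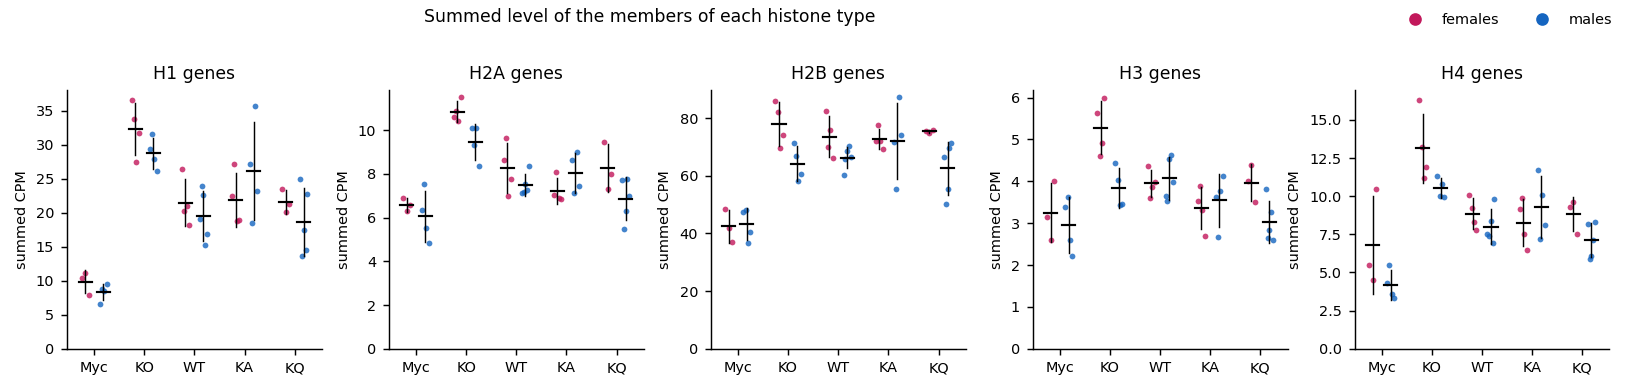
Summed CPM of the members of each histone type in each group (horizontal axis), with 1 point per mouse, the mean as a bar and the SD as a line. H1 sums run from 6.58 to 11.2 CPM in Myc and from 26.1 to 36.5 CPM in KO mice, and H2B sums stay near the KO level in the WT, KA and KQ groups. This is not limited to H2B, since the H3 mean was 4.07 CPM in WT and 3.84 CPM in KO males. In KA males the means were 26.1 CPM for H1 and 9.27 CPM for H4, beside 28.7 and 10.5 CPM in KO males.

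The members were also split by what their sequence allows the counts to show. The shares of all genes higher, 18.1% in females and 17.2% in males, stand beside each of these counts. Of the 20 members with under 20% of windows shared, 5 rose in females (25.0%) and 7 in males (35.0%). Of the 16 with over 80% shared, 6 rose in each sex (37.5%), and of the 25 between, 4 (16.0%) and 6 (24.0%). By position, 12 of the 51 members on chromosome 13 rose in females (23.5%) and 19 in males (37.3%), and 3 (30.0%) and 0 of the 10 on chromosome 3. By length, 9 (45.0%) and 7 (35.0%) of the 20 members annotated more than 200 bases past the stem-loop rose, against 6 (17.1%) and 11 (31.4%) of the 35 with shorter ends and 0 and 1 (16.7%) of the 6 without a match. By level, 8 (80%) and 4 (40.0%) of the 10 members with a mean of at least 1 CPM rose, and 0 and 4 (22.2%) of the 18 under 0.1 CPM. Genes with more counts pass more easily, and shares of all genes at a matched level were not counted. The split by level is thus no result about abundant members. The shares of 16.0%, 17.1% and 16.7% are no higher than those of all genes, and no difference between these splits was tested.

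Replacement of H2A.Z.1 lowered few members from their level in KO mice, and raised none (all genes tested: 5.36%, 5.63% and 5.36% in females and 7.44%, 5.86% and 8.72% in males for WT, KA and KQ). These comparisons share the KO mice of a sex, so their results are not independent. In females 3 members were lower with WT (all genes tested: 9.17%), 6 with KA (9.62%) and 1 with KQ (7.63%). In males 5 were lower with WT (12%), 2 with KA (9.94%) and 4 with KQ (12.7%). Each of these shares of the 61 members, 4.92%, 9.84%, 1.64%, 8.2%, 3.28% and 6.56%, was near or under that of all genes. The median log2 fold change of the members against KO mice was -0.42, -0.45 and -0.44 in females and -0.1, -0.08 and -0.35 in males, in the order WT, KA and KQ. Some counts rested on single mice. Without female WT mouse 39 the number for WT was 0, and it was 1 without KO mouse 13 or 14 or WT mouse 19 or 40. For female KA mice it was 2 without KO mouse 14 and 3 without KA mouse 35 or 36. For female KQ mice it was 0 without KO mouse 13 or KQ mouse 38 and 4 without KO mouse 33. For males it was 3 with WT without KO mouse 4 or WT mouse 30, and 1 with KA without KO mouse 4 or 21 or KA mouse 25 or 43.

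H4c8 fell against KO mice in 5 of the 6 comparisons. In females its log2 fold change was -0.71 with WT (adjusted p = 0.0472), -1.08 with KA (adjusted p = 0.00324) and -1.05 with KQ (adjusted p = 0.00909). In males it was -0.86 with WT (adjusted p = 0.00742), -0.34 with KA (adjusted p = 0.406) and -0.93 with KQ (adjusted p = 0.0038). Female WT mice stood at 2.92 to 3.7 CPM, below every KO mouse, and male WT mice at 2.01 to 4.02 CPM, where mouse 46 alone reached into the KO range. All were above every Myc mouse of their sex. The call of H4c8 with WT in females was lost without KO mouse 13 or 14 or any 1 of the 4 WT mice (-0.54 to -0.74), and with KQ in females without KO mouse 13 (-0.88) or KQ mouse 38 (-0.85). The former was also lost with no filter (adjusted p = 0.0536) and without the mice over 1000 CPM of Ttr (adjusted p = 0.102), and the latter with only the compared groups fitted (adjusted p = 0.0673).

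H1f2 fell in 4 of the 6. It stood at 24.9, 19.0, 19.4 and 17.1 CPM in female WT mice and at 17.7, 22.9, 20.8, 14.2 and 16.1 CPM in male WT mice. Each of these mice was below every KO mouse and above every Myc mouse of its sex. The log2 fold changes against KO mice were -0.59 with WT (95% interval -0.98 to -0.21, adjusted p = 0.0287), -0.57 with KA (-0.96 to -0.19, adjusted p = 0.0348) and -0.56 with KQ (-0.98 to -0.15, adjusted p = 0.0637) in females. In males they were -0.57 with WT (-0.93 to -0.2, adjusted p = 0.0214), -0.14 with KA (-0.52 to 0.25, adjusted p = 0.7) and -0.62 with KQ (-0.99 to -0.26, adjusted p = 0.0101). The calls of H1f2 were lost without any 1 of 5 mice with WT in females (KO mice 13 and 14 and WT mice 20, 39 and 40, -0.58 to -0.52) and with KA in females (KO mice 13 and 14 and KA mice 15, 35 and 36, -0.58 to -0.51). With WT in males the call was lost without KO mouse 4 or WT mouse 30 or 46 (-0.52 to -0.49). Without the mice over 1000 CPM of Ttr the calls of H1f2 in females were lost with WT (-0.63, adjusted p = 0.105) and with KA (-0.64, adjusted p = 0.0755).

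H2bc4 did not pass against KO mice in any of the 6 comparisons. It stood at 63.1, 52.0, 56.9 and 49.3 CPM in female WT mice and at 43.8, 52.1, 50.6, 52.6 and 49.1 CPM in male WT mice, within or close to the range of the KO mice and above every Myc mouse. Its log2 fold changes against KO mice were -0.12 (95% interval -0.37 to 0.12) with WT, -0.1 (-0.34 to 0.15) with KA and -0.04 (-0.3 to 0.23) with KQ in females. In males they were -0.01 (-0.24 to 0.23), 0.17 (-0.08 to 0.41) and -0.07 (-0.3 to 0.17). The lowest bounds of these intervals, -0.37 in females and -0.3 in males, are smaller in size than the rises of 1.02 and 0.7 in KO mice. Within a mouse, the ratio of H1f2 to H2bc4 counts, which needs no scaling between libraries, was 0.289 ± 0.0578 in female Myc (SD, n = 3), 0.503 ± 0.0131 in KO and 0.362 ± 0.0238 in WT mice (n = 4 each). In males it was 0.255 ± 0.0574 in Myc, 0.546 ± 0.033 in KO (n = 4 each) and 0.371 ± 0.0699 in WT mice (n = 5). The WT mice of both sexes lay below all KO mice, with at most 0.394 in females and 0.439 in males against at least 0.484 and 0.5. This ratio was chosen after its parts were seen and is not tested.

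Of all H2B genes, H2bc7 with KA in females was the exception that fell (-1.46, adjusted p = 0.0387, SE 0.49), at 0.0438 to 0.142 CPM in KA and 0.162 to 0.446 CPM in KO mice; it is named as the lone H2B call, after its values were seen. The median log2 fold change of H2B genes against KO mice was -0.04, -0.23 and -0.36 in females and 0.0, 0.14 and -0.13 in males for WT, KA and KQ. For H1 genes it was -0.59, -0.57 and -0.82 in females and -0.57, -0.14 and -0.62 in males. The summed H2B level with WT stayed at 1.73 ± 0.168 times the Myc mean in females and 1.54 ± 0.0857 times in males. The H1 sum was at 2.18 ± 0.354 and 2.35 ± 0.439 times, and H2A at 1.26 ± 0.174 and 1.24 ± 0.0822 times.

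The H2A calls differed in member between the sexes. H2ac23 fell in males with each replacement, the log2 fold change being -1.53 with WT (adjusted p = 0.00256), -2.11 with KA (adjusted p = 0.000383) and -1.33 with KQ (adjusted p = 0.00795). Male KA mice stood at 0.236 to 0.33 CPM, as low as Myc mice. H2ac24 fell in the same 3 groups, with -1.39 (adjusted p = 0.0477), -1.72 (adjusted p = 0.0273) and -1.67 (adjusted p = 0.0165). Its calls rested on single mice, since leaving out any 1 of 7 mice with WT, 4 with KA and 3 with KQ ended them, KO mice 4 and 21 among them each time (-1.06 to -1.6). The further mice were all 5 WT mice, KA mice 25 and 43 and KQ mouse 27. H2ac24 was also lost with WT with no filter (adjusted p = 0.0568) and without the mice over 1000 CPM of Ttr (adjusted p = 0.0528), and with KA with only the compared groups fitted (adjusted p = 0.103). In females H2ac19 (-0.67, adjusted p = 0.00825) and H2ac18 (-0.62, adjusted p = 0.0257) fell with KA alone. H2ac19 was lost there without KO mouse 14 (-0.52), and H2ac18 without that mouse or KA mouse 15, 35 or 36 (-0.61 to -0.54) or with only the compared groups fitted (adjusted p = 0.0607). Without the mice over 1000 CPM of Ttr both were lost (H2ac19 adjusted p = 0.0891, H2ac18 adjusted p = 0.106). H3c15 fell in females with WT (-0.69, adjusted p = 0.0206) and with KA (-0.92, adjusted p = 0.00272), the former lost without WT mouse 19 or 39 or KO mouse 34 (-0.64 to -0.63) and without the mice over 1000 CPM of Ttr (adjusted p = 0.069). H1f1 in males with WT, at 2 counts in 5 mice, completed the list (adjusted p = 0.00597), again without a fold change given.

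Against Myc mice, the replacement groups had 4 to 9 members higher and none lower (all genes tested, lower: 3.52%, 3.23% and 2.08% in females and 1.68%, 2.74% and 1.65% in males for WT, KA and KQ). In females 7 members were higher with WT (all genes tested: 5.87%), 5 with KA (4.42%) and 4 with KQ (3.59%). In males 8 were higher with WT (3.66%), 9 with KA (5.15%) and 4 with KQ (3.48%). As shares of the 61 members these are 11.5%, 8.2% and 6.56% in females and 13.1%, 14.8% and 6.56% in males. All 6 comparisons share the Myc mice of a sex. H1f2, H2bc4 and H4c9 passed in all 6. H2bc4 was higher by 0.89, 0.92 and 0.98 in females and by 0.7, 0.87 and 0.64 in males with WT, KA and KQ, and H1f2 by 1.21, 1.23 and 1.24 and by 1.26, 1.69 and 1.2. H4c9 was higher by 0.91, 1.0 and 1.25 in females and by 0.98, 1.14 and 0.72 in males. Its call was lost with WT in females without Myc mouse 31 or 32 or WT mouse 19 (0.7 to 0.87), with KA in females without Myc mouse 32 (0.8) and with KQ in males without any 1 of Myc mice 1, 23 and 41 or KQ mice 8, 28 and 45 (0.6 to 0.77). With only the compared groups fitted H4c9 was lost with WT (adjusted p = 0.0728) and KQ (1.24, adjusted p = 0.0775) in females and with KQ in males (adjusted p = 0.13). Without the mice over 1000 CPM of Ttr it was lost with KQ in females (1.24, adjusted p = 0.0579) and in males (adjusted p = 0.0527), where it was also lost with no filter (adjusted p = 0.0551).

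The counts against Myc moved with single Myc mice. Without female Myc mouse 31 they were 2 with WT and 3 with KA, and without Myc mouse 32 they were 4 and 3. Without female WT mouse 19 the number was 4, and without KA mouse 16 it was 3. In males they were 3 with WT without Myc mouse 23 or 41, 5 with KA without KA mouse 5 or 26, and 2 with KQ without Myc mouse 1, 23 or 41 or KQ mouse 8.

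**Figure D4:**
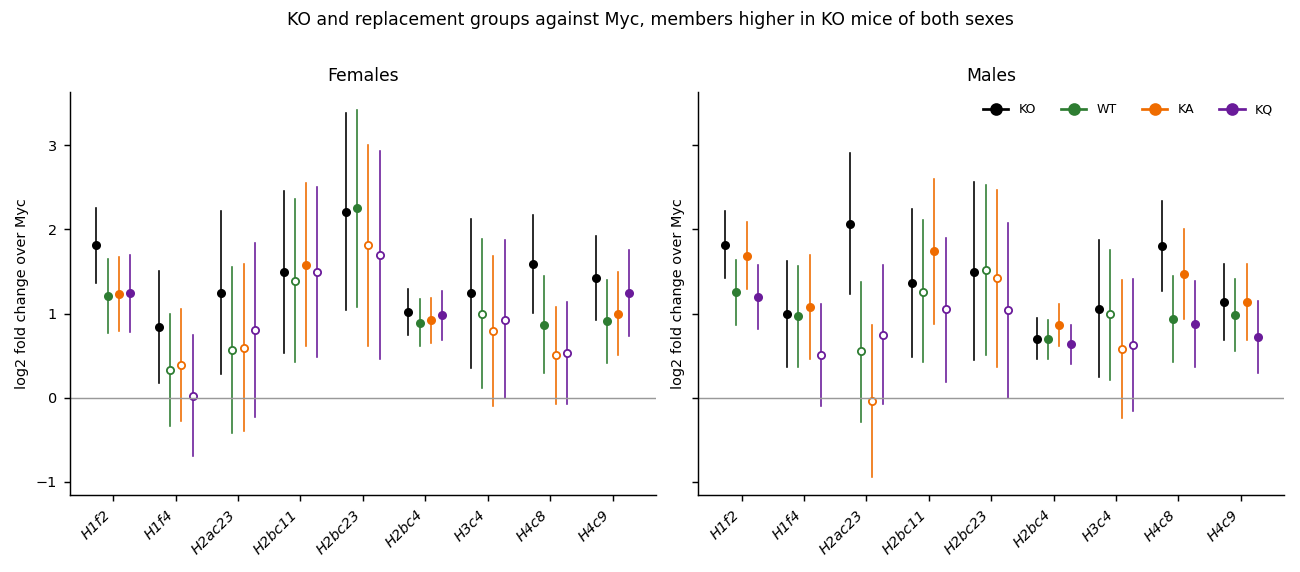
Log2 fold change over Myc mice of the KO (black), WT (green), KA (orange) and KQ (purple) groups for the 9 members that rose in KO mice of both sexes, with 95% intervals and filled points where the adjusted p was under 0.05. H2bc4 lies between 0.64 and 1.02 in every group, whereas H2ac23 in males falls from 2.07 in KO mice to -0.04 in KA mice.

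KA and KQ mice, in which acetylation of H2A.Z.1 is blocked or mimicked, were compared directly. No member and no other gene passed in edgeR in either sex (all genes tested: 0.0%), and DESeq2 found 0 members (0.0281% of all genes in females and 0.0703% in males). At an unadjusted p under 0.05 there was 1 member in females and 7 in males, among 595 and 2993 of the 28449 genes. These counts are near the share of all genes in each sex and are no result about the members. The 7 in males were all higher in KA mice, and among them H1f2 differed by 0.49 (95% interval 0.13 to 0.85, adjusted p = 0.39), H4c8 by 0.59 (0.11 to 1.07, adjusted p = 0.406) and H2bc4 by 0.24 (0.0 to 0.47, adjusted p = 0.467). In females the same genes differed by -0.01 (-0.42 to 0.4), -0.03 and -0.06 (-0.33 to 0.2). The spread of the male KA mice was wide, with H1f2 at 17.5, 22.1, 25.4 and 33.8 CPM against 12.8 to 23.6 CPM in KQ males.

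Genes that act with the histone genes were taken from lists and are given beside them. Of 29 genes of S phase and mitosis, 23 rose in KO females and 28 in KO males, and none fell, with medians of 1.1 and 1.8 on the log2 scale. These are 79.3% and 96.6% of the list, against 18.1% and 17.2% of all genes higher. Mcm3, part of the helicase that opens DNA for replication, rose by 2.09 and 2.2, and Cdk1, the kinase of mitosis, by 2.8 and 4.44. With WT replacement 19 of the 29 fell in females and 28 in males against KO mice, with medians of -0.9 and -1.37. Of all genes tested 9.17% and 12% were lower there, and of the 61 histone members 3 and 5. The members had medians of -0.42 and -0.1. The log2 fold change of Mcm3 was then -1.07 in females and -1.65 in males, beside -0.12 and -0.01 for H2bc4.

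Of 21 genes that make and process histone mRNA, 2 rose and 4 fell in KO females and 3 and 4 in KO males (medians -0.11 and -0.09). The shares higher, 9.52% and 14.3%, were under those of all genes, and the shares lower, 19.0% in each sex, were near the 16.5% and 14.4% of all genes. Cdk2, the kinase that activates histone transcription at the start of S phase, rose by 1.41 in females and 1.33 in males, whereas its partner Ccne1 fell by 0.73 and 0.82. Slbp and Npat are given for their roles, outside the naming rule. Slbp was at 0.1 (adjusted p = 0.479) in females and rose by 0.28 (adjusted p = 0.0155) in males, and Npat, the coactivator of the histone clusters, was at -0.01 (adjusted p = 0.945) and 0.04 (adjusted p = 0.83). Cpsf2, a subunit of the complex that cuts histone pre-mRNA, fell by 0.52 and 0.37. Eri1, an exonuclease that trims the stem-loop end, rose by 0.27 and 0.36.

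Of 19 genes for chaperones, which hand histones to DNA, 4 rose and 1 fell in KO females, and 5 and 0 changed so in KO males (medians 0.02 and 0.01). The shares higher, 21.1% and 26.3%, stand beside 18.1% and 17.2% of all genes. The shares lower, 5.26% and 0.0%, stand beside 16.5% and 14.4%, and these differences were not tested. Chaf1b, of the assembly factor CAF-1 that works at the fork, rose by 3.21 in females and 2.96 in males, and Asf1b by 1.27 and 2.25. Of 10 replication-independent histone genes, 2 rose (20.0%) and 1 fell (10.0%) in each sex, near the shares of all genes. H3f3b, which codes for H3.3, rose by 0.57 in both, Cenpa, the centromeric H3, by 1.12 and 1.48, and Macroh2a2 fell by 0.61 and 0.49.

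**Figure D5:**
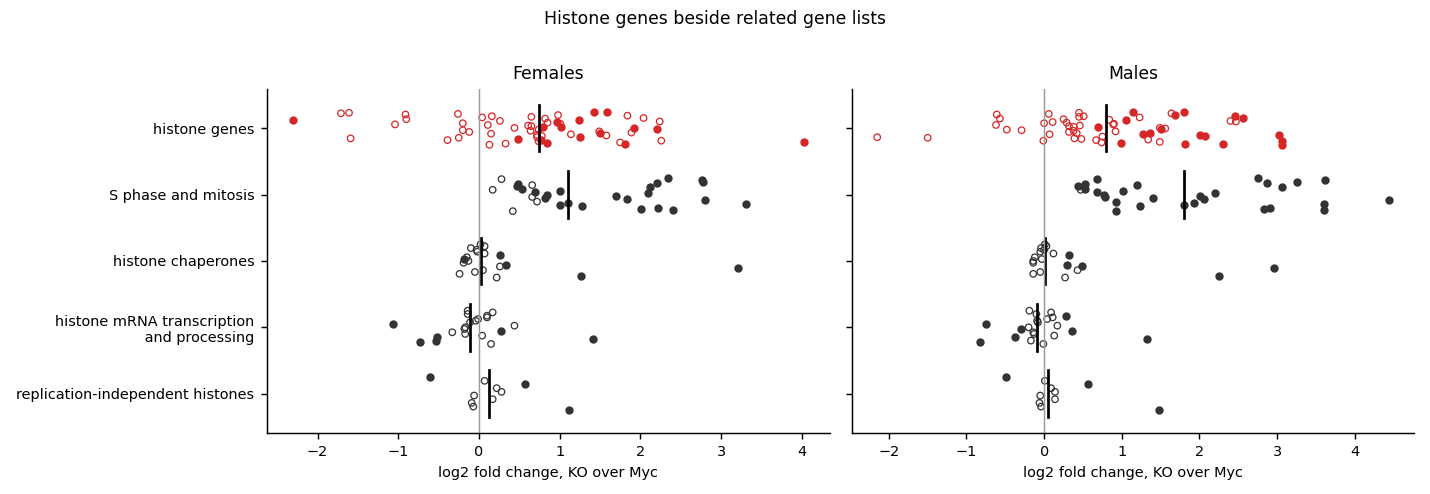
Log2 fold change of KO over Myc mice (horizontal axis) for the histone members (red) and 4 lists of related genes (grey) in females and males, with filled points at an adjusted p under 0.05, a bar at the median and members with a group at 0 counts left out. The list of S phase and mitosis lies at 1.1 and 1.8 and the other 3 lists between -0.11 and 0.12.

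Markers of other cells moved with the same groups, and their part in the histone levels was not tested. Of all genes tested, 18.1% rose and 16.5% fell in KO females, and 17.2% and 14.4% in KO males. All 6 T cell markers and all 4 B cell markers rose in KO mice of both sexes, with summed levels of 0.352 to 2.9 and 0.383 to 0.792 CPM in Myc and 14.8 to 137.0 and 1.97 to 18.1 CPM in KO mice. All of them fell in all 3 replacement groups of both sexes against KO mice (all genes tested: 7.63% to 12.7%). All 6 microglial markers also rose in both sexes, from sums of 223.0 to 346.0 CPM in Myc to 859.0 to 1690.0 CPM in KO mice, as did all 3 astrocyte markers. Of 6 markers of hippocampal neurons 4 fell in KO females and 3 in KO males, from sums of 5590.0 to 6050.0 CPM to 2190.0 to 4550.0 CPM. Endothelial markers rose for 3 of 3 in females and 1 of 3 in males, and those of red cells for 2 of 3 and 0 of 3. Markers of oligodendrocyte precursors passed for 1 of 3 in females, higher, and 0 of 3 in males, and those of neural progenitors for 1 of 4 in each sex, lower in females and higher in males.

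With WT replacement the T cell sum was still 2.78 to 8.17 CPM and the microglial sum 455.0 to 660.0 CPM. In these mice H2bc4 was at 43.8 to 63.1 CPM, beside 44.9 to 67.0 CPM in KO mice, whereas H1f2 and H4c8 fell against KO mice in both sexes. The 4 markers of choroid plexus rose in KO females and did not pass in males. They ran from 8.53 to 4260.0 CPM over Myc, KO and WT mice. Without the 4 mice over 1000 CPM of Ttr, the numbers of higher members in KO mice stayed within 1.5 times those above, that of lower members in females with WT went from 3 to 1 and with KA from 6 to 3.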

How the data were processed

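Hippocampal RNA from 40 mice was sequenced with 1 library per mouse, so p-values measure the spread between mice. The authors deposited raw counts per gene symbol, made by alignment to GRCm39 with Rsubread and assignment with featureCounts after FastQC 0.11.9. Their table scaled with DESeq2 1.38.3 was not used here. Every count column was matched to a mouse by its label (0 unmatched). Groups followed sex and virus in the labels. The 28449 genes whose counts summed to 20 or more were fitted with edgeR 4.0.16 (R 4.3.3, limma 3.58.1), with TMM scaling, 10 group means over all 40 mice, robust quasi-likelihood tests and Benjamini-Hochberg adjustment over all 28449 genes for each of 17 comparisons. Fits were tested on simulated data. Totals ran from 24342921 to 45982772 counts, and precision is lowest for the 18 members under 0.1 CPM.

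The members and lists were chosen with earlier results of these data known. Members named with values had a mean of at least 2 CPM or were among up to 4 with the smallest p per histone type and sex among those that passed, and up to 4 genes were named per related list. The lists were S phase and mitosis, histone chaperones, histone mRNA transcription and processing, replication-independent histones, and markers of neurons, microglia, T cells, B cells, oligodendrocyte precursors, neural progenitors, endothelium, choroid plexus, red cells and astrocytes. Shared sequence was counted in windows of 100 bases against other annotated genes of GENCODE on GRCm39. Stem-loops were read from that genome and promoters from RefSeq (GRCm38.p6). Alternatives were 7 other settings, among them DESeq2 1.42.0, and leaving out each of the 40 mice.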

Additional observations from a re-analysis of the deposited data

Results flagged for a closer look

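Among 231 groups of 4 or 5 mice, 18 held a mouse far from the rest by Dixon's criterion, where chance gives about 1 in 20. For the more abundant members, the highest mouse was at 6.47 CPM of H2bc21 in male KA mice (the others at 5.45 to 5.51), 4.22 CPM of H2ac19 in female KO mice (2.93 to 3.05), 4.02 CPM of H4c8 in male WT mice (2.01 to 2.42) and 8.03 CPM of H2bc6 in female WT mice (7.36 to 7.47). H4c8 in female WT mice had a low mouse, 39, at 2.92 CPM (3.66 to 3.7). The summed H2A level of female KA mouse 16 was 8.1 CPM (6.86 to 7.05).

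For scarcer members, the high mouse was at 1.37 CPM of H1f4 in male WT mice (0.752 to 0.836), 0.496 CPM of H2ac10 in female KA mice (0.0877 to 0.156), 0.627 CPM of H2bc23 in male KO mice (0.243 to 0.302), 0.226 CPM of H2ac24 in male Myc mice (0.088 to 0.101) and 0.591 CPM of H4c18 in female WT mice (0.104 to 0.178). H2ac11 stood at 0.136 CPM in female KO mouse 34 (0.0269 to 0.0446) and at 0.105 CPM in male WT mouse 29. In the remaining groups a single mouse had any count, with H2ac4 at 0.0317 CPM in male Myc mouse 22, H2ac11 at 0.0257 CPM in female WT mouse 20 and 0.0254 CPM in male Myc mouse 41, and H2bc14 at 0.0312 CPM in female KA mouse 16 and 0.0275 CPM in male KA mouse 5.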

How the results depend on the processing

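Of 1278 refits of 87 named calls, 1055 kept direction and call, 223 kept direction without passing and 0 reversed, and 41 calls passed in every refit. With DESeq2, 13 members were higher in WT than Myc males and 4 lower in KQ than KO females. With filterByExpr 3 were lower in KQ than KO females. Fitting only the groups compared gave 12 higher in KO than Myc males, 0 lower in KO than Myc females, 1 lower in KA than KO males, 0 lower in KQ than KO females and 2 higher in KQ than Myc females. Without the 4 mice over 1000 CPM of Ttr, 0 were lower in KO than Myc females, 1 in KO than Myc males, 1 in WT than KO females, 3 in KA than KO females and 3 in KQ than KO females, and 2 were higher in KQ than Myc females. With sample number range as a covariate 5 named calls were lost, with DESeq2 2, with no filter 11, with only the compared groups 17 and without the Ttr mice 15. The causes were not tested. For these refits and those with 1 mouse left out, the shares over all genes are not given. A changed count of members is thus no result about the members alone. Leaving out 1 mouse at a time, the members higher in KO than Myc mice ranged from 9 to 17 in females and 12 to 20 in males, and those lower from 0 to 2 and from 0 to 1. Against KO mice, those lower ranged in females from 0 to 3 with WT, 2 to 6 with KA and 0 to 4 with KQ, and in males from 3 to 6, 1 to 2 and 3 to 5. Against Myc mice, those higher ranged in females from 2 to 7, 3 to 6 and 3 to 6, and in males from 3 to 9, 5 to 10 and 2 to 5. Between KA and KQ mice and between the sexes the number stayed at 0. Ratios of summed levels in KO over Myc mice ranged in females from 3.0 to 3.52 for H1, 1.61 to 1.69 for H2A, 1.72 to 1.97 for H2B, 1.48 to 1.84 for H3 and 1.65 to 2.64 for H4, and in males from 3.22 to 3.61, 1.46 to 1.7, 1.42 to 1.55, 1.2 to 1.4 and 2.35 to 2.81. No paired analysis was possible because each mouse number belongs to 1 mouse and the groups share none. Depth limits calls for members with few counts, and copies of near-identical sequence limit which gene a count belongs to.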
